A study of Mus musculus and Bos taurus with 6 samples.

Results

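The family of miR-15, miR-16, miR-195 and miR-497 was followed through small RNA libraries of lactating mammary gland. Its members were taken as every mouse or bovine line of the deposited lists named miR-15a, miR-15b, miR-16 (miR-16a or miR-16b in bovine), miR-195 (miR-195a in mouse) or miR-497, on the 5p arm. This rule found 11 of 3289 listed miRNA, 5 of the 1750 in the mouse list and 6 of the 1539 in the bovine list. The rule used names and arms alone.

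The study compared miRNA of the lactating gland between mouse and cow, and between total RNA and RNA bound to AGO2 in mouse. Mouse RNA came from abdominal glands of 2 primiparous FVB/N mice at day 12 of lactation, with the lymph node removed. It gave 2 libraries of total RNA (mouse) and 2 libraries of RNA precipitated from gland lysate with a monoclonal antibody to AGO2 (AGO2), and the sources do not say whether a mouse and an AGO2 library of the same number came from 1 animal. The 2 bovine libraries (bovine) were each a pool of biopsies from 2 multiparous Holstein cows at mid-lactation, fed hay and concentrate at a 46:54 ratio, called low forage. RNA was extracted with another kit in bovine than in mouse and AGO2, so that species, kit, diet, biopsy and pooling cannot be told apart in that comparison. The glands were whole tissue, in which a miRNA lower per cell and fewer cells that make it cannot be told apart. Counts summed to between 3909166 and 10613807 per library, and levels are given as reads per 1000000 (RPM) of that sum. At this depth the 95% exact binomial interval of a member's level reached at most 4.79% above it, which covers counting error only. The spread between the 2 libraries of a group was wider for most members, and p-values measure that spread.

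A miRNA guides an Argonaute protein to messenger RNA, mostly by pairing of its seed, the bases 2 to 8 from its 5′ end. A precursor hairpin is cut into a 5p and a 3p arm, of which 1 is usually kept by Argonaute as the guide and the other, the passenger, is lost. The miR-15/16 family is known for holding back the cell cycle, with cyclins and the survival factor BCL2 among its best known targets. AGO2 is the Argonaute protein that can itself cut a target.

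The mature sequences are shown because all 11 members carry the same seed, in capitals, and differ only outside it. The mouse sequences were identical in the deposited list and in RefSeq.

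mmu-miR-15a-5p: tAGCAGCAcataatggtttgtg
mmu-miR-15b-5p: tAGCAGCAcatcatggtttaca
mmu-miR-16-5p: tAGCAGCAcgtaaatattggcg
mmu-miR-195a-5p: tAGCAGCAcagaaatattggc
mmu-miR-497-5p: cAGCAGCAcactgtggtttgta
bta-miR-15a-5p: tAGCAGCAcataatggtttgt
bta-miR-15b-5p: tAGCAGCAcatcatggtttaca
bta-miR-16a-5p: tAGCAGCAcgtaaatattggtg
bta-miR-16b-5p: tAGCAGCAcgtaaatattggc
bta-miR-195-5p: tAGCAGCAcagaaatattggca
bta-miR-497-5p: cAGCAGCAcactgtggtttgta

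By sequence the family fell into pairs. In mouse, miR-195a-5p and miR-16-5p had 19 of 21 compared bases in common, and miR-15a-5p and miR-15b-5p had 18 of 22. The pair least alike was miR-16-5p and miR-497-5p, with 11 of 22. Between the species, miR-15b-5p and miR-497-5p were identical, and miR-15a-5p and miR-195 differed only by 1 more base at the 3′ end. Bovine miR-16a-5p, which the list of names used for matching sets beside mouse miR-16-5p, differed from it by C21T, with mouse as the reference and positions counted from 1 at the 5′ end. The 21 bases of bovine miR-16b-5p were those of mouse miR-16-5p. The bovine miR-16a-5p and miR-16b-5p shared their first 20 bases, so a read that ends there can come from either. How such reads were shared out is not given in the sources used here, and some may count in both lines. RNA was tailed with poly-A before sequencing and the stretches were trimmed from the reads, so a final a of miR-15b-5p, miR-497-5p or bovine miR-195-5p could not be read apart from the tail.

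In the mouse genome (GRCm38) the 6 precursor genes form 3 pairs. Mir15a (chr14:61632027-61632110) and Mir16-1 (chr14:61631880-61631972) lie 54 bases apart on the minus strand, in an intron and an exon of the noncoding gene Dleu2. Mir15b (chr3:69009772-69009835) and Mir16-2 (chr3:69009902-69009996) lie 66 bases apart on the plus strand, in introns of Smc4, which encodes a condensin subunit. Mir497 (chr11:70234717-70234800) and Mir195a (chr11:70235042-70235135) lie 241 bases apart on the plus strand, between annotated genes apart from Mir497b, which overlaps Mir497 on the other strand. The precursors of Mir16-1 and Mir16-2 give the same 5p arm but different 3p arms, as their RefSeq hairpins show, with both arms in capitals.

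Mir16-1: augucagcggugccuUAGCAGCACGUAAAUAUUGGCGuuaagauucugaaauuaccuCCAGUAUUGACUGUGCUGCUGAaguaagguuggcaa
Mir16-2: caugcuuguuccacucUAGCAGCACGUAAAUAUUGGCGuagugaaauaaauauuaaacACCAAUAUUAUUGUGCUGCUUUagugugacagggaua

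The family took 2.67% and 2.04% of all counts in mouse samples 1 and 2. In AGO2 samples 1 and 2 it took 1.38% and 0.862%, below both mouse samples. In bovine samples 1 and 2 it took 5.26% and 5.14%, above both. The summed level was 23545 ± 4479 RPM (SD, n = 2) in mouse, 11200 ± 3652 in AGO2 and 52003 ± 785 in bovine, so that the mean in AGO2 was 0.476 times and the mean in bovine 2.21 times that in mouse. These ratios use library totals. By that scaling the median log2 fold change over the miRNA tested below was -0.27 for AGO2 and 0.50 for bovine against mouse. The bovine sum holds 6 lines against 5 in mouse, and reads counted in both miR-16 lines would raise it. The sum was not tested, since its members are not replicates.

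The most abundant member in every library was miR-16, made in mouse from a precursor beside Mir15a and another beside Mir15b. Mouse samples 1 and 2 had 14407 and 10996 RPM of it, and the AGO2 samples had 6701 and 4370 RPM. The bovine samples had 25514 and 26865 RPM of miR-16a-5p. By mean level it was the 19th of all listed miRNA in mouse, the 26th in AGO2 and the 10th in bovine. Bovine miR-16b-5p added 5908 and 5968 RPM, and miR-16a-5p stood 4.32 and 4.50 times above it.

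Its partner at the Dleu2 locus, miR-15a-5p, had 5470 and 3053 RPM in mouse, 2963 and 1183 RPM in AGO2 and 6690 and 5914 RPM in bovine. miR-15b-5p, from the Smc4 locus, was the lowest member in bovine and among the lowest in mouse and AGO2. It had 1781 and 1074 RPM in mouse, 1450 and 614 RPM in AGO2 and 1180 and 1326 RPM in bovine.

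At the third locus the order of the members differed between the species. miR-195 had 1530 and 1143 RPM in mouse, 572 and 348 RPM in AGO2 and 7371 and 6572 RPM in bovine. Its neighbour miR-497-5p had 3524 and 4111 RPM in mouse, 2097 and 2104 RPM in AGO2 and 5896 and 4804 RPM in bovine. In mouse and AGO2 miR-497-5p stood above miR-195a-5p in both libraries, and in bovine miR-195-5p stood above miR-497-5p in both.

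**Figure D1:**
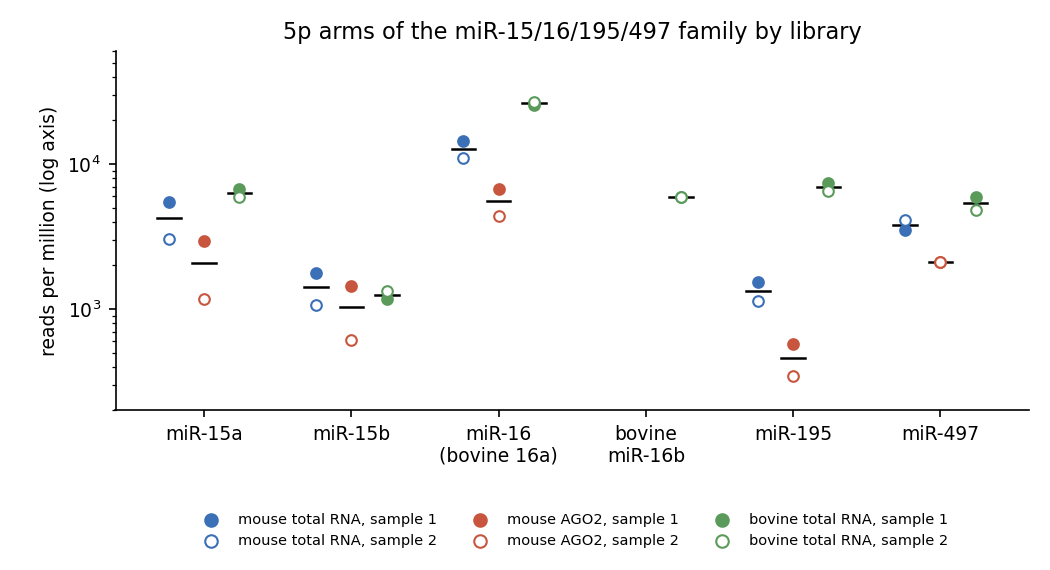
Levels of the family's 5p arms in RPM (log axis) in each library, with filled points for sample 1, open points for sample 2 and a bar for the mean. miR-16 lies highest in each group, and miR-195 lies between 6572 and 7371 RPM in bovine against 1143 to 1530 RPM in mouse.

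Within a group, the order of levels was partly open to the spread. In mouse, miR-16-5p stood clear of the rest. miR-15a-5p and miR-497-5p changed places between the samples, as did miR-15b-5p and miR-195a-5p, and the former pair stood above the latter in both samples. In AGO2, miR-497-5p and miR-15a-5p changed places, and miR-195a-5p was lowest in both samples. In bovine, miR-15b-5p was lowest and miR-497-5p next to lowest in both samples, while the levels of miR-195-5p and miR-15a-5p overlapped, as did those of miR-15a-5p and miR-16b-5p.

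The 2 libraries of a group lay 1.01 to 1.23 times apart in bovine, 1.17 to 1.79 times in mouse and 1.00 to 2.51 times in AGO2, where miR-15a-5p and miR-15b-5p were over 2 times apart. Of the 5 members, 4 were higher in sample 1 of mouse and the same held for 4 in AGO2, with miR-497-5p the exception in both. In AGO2 it hardly differed, at 2097 and 2104 RPM. The share of all miRNA that were higher in sample 1 was not computed. The summed level of 4 listed red blood cell miRNA, led by miR-451a, was 13369 and 6522 RPM in mouse samples 1 and 2 and 32505 and 15557 RPM in AGO2 samples 1 and 2, also higher in sample 1. Singly, miR-144-3p of this list was lower in AGO2 sample 1, at 4767 against 5361 RPM. The sums of the other cell type lists were all lower in mouse sample 1. In AGO2 those of endothelium and of stroma were slightly higher in sample 1, and the rest were lower. Single members of the epithelial and stroma lists went the other way. Of these, miR-200b-3p, miR-200c-3p, miR-205-5p, miR-145a-5p and miR-214-3p were higher in sample 1 of both mouse and AGO2. For miR-200c-3p the values were 17888 and 5127 RPM in mouse and 4567 and 1788 RPM in AGO2. The part of red blood cells in the spread of the family was not tested.

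As a share of the family, miR-16-5p took 53.9% and 54.0% in the mouse samples and 48.6% and 50.7% in the AGO2 samples. In bovine, miR-16a-5p took 48.5% and 52.2%, and with miR-16b-5p the share was 59.8% and 63.8%. miR-195 took 5.73% and 5.61% in mouse, 4.15% and 4.03% in AGO2 and 14.02% and 12.8% in bovine. The share of miR-195 was thus highest in bovine and lowest in AGO2, with no overlap between the groups. miR-15b-5p took 6.67% and 5.27% in mouse, 10.5% and 7.12% in AGO2 and 2.25% and 2.58% in bovine. The share of miR-15a-5p overlapped between mouse and AGO2, at 20.5% and 14.98% against 21.5% and 13.7%, and was 12.7% and 11.5% in bovine. The share of miR-497-5p likewise overlapped between mouse and AGO2, at 13.2% and 20.2% against 15.2% and 24.4%, and was 11.2% and 9.34% in bovine.

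**Figure D2:**
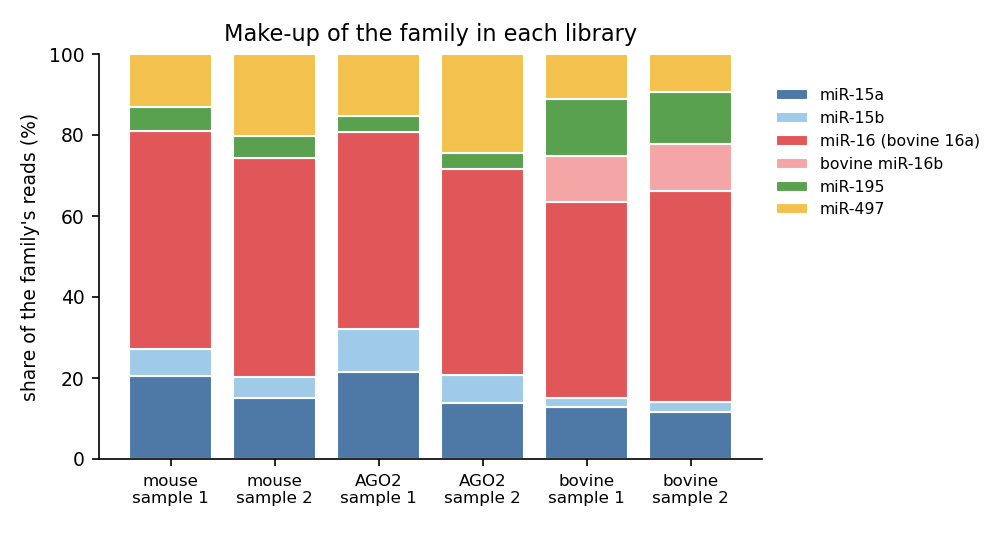
Share of the family's reads (%) taken by each member in the 6 libraries, stacked to 100. miR-16 takes the widest band in each library, and the band of miR-195 is 14.02% and 12.8% in bovine against 5.73% and 5.61% in mouse.

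AGO2 against mouse addresses how the share of a miRNA among AGO2-bound RNA compares with its share in the gland. All 5 members had a lower level in AGO2 than in mouse by the fit without pairing, but none passed its test. With edgeR's quasi-likelihood test and Benjamini-Hochberg adjustment over 299 miRNA, 0 of 5 members were called, against 12.4% of all tested miRNA called lower and 15.4% called higher. An unadjusted p under 0.05 was reached by 2 members, miR-16-5p and miR-195a-5p, and in the same direction by 62 of the 299 tested miRNA. Both AGO2 samples lay below both mouse samples in RPM for 4 of the 5 members, the exception being miR-15b-5p, and the same held for 42.1% of all tested miRNA. No member had both AGO2 samples above both mouse samples, against 31.1% of all tested miRNA. A fit by edgeR with the sample numbers as a replicate block, chosen after seeing the data, called 3 members lower. It called 61 of the 299 tested miRNA lower. The sources do not say whether these numbers mark a mouse.

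The largest difference was that of miR-195a-5p, with a log2 fold change of -1.39 ± 0.61 (SE) and an adjusted p of 0.0843 by edgeR. DESeq2 called it, as its only member, at an adjusted p of 0.0325, and it called 16.1% of all tested miRNA lower. miR-16-5p followed with -1.05 ± 0.45 and an adjusted p of 0.0813 by edgeR. The log2 fold change was -0.90 ± 0.56 for miR-15a-5p, -0.71 ± 0.52 for miR-497-5p and -0.33 ± 0.60 for miR-15b-5p, with adjusted p-values of 0.224, 0.292 and 0.662 by edgeR. Without AGO2 sample 2 the value of miR-15b-5p turned to 0.27, and without mouse sample 1 to 0.03. Leaving out 1 library moved the log2 fold change of miR-15a-5p between -1.30 and -0.27, of miR-16-5p between -1.25 and -0.68 and of miR-195a-5p between -1.61 and -0.98. The median log2 fold change was -0.90 over the 5 members and -0.12 over all tested miRNA.

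The scaling of the libraries moved the median of all tested miRNA by 0.11 with DESeq2 size factors and by -0.15 with library totals alone. Set against that median, miR-16-5p lay at -0.94 in the fit reported, at -0.93 with DESeq2 size factors and at -0.93 with library totals alone. The values of miR-195a-5p were -1.28, -1.27 and -1.27. All 5 members kept their sign under these scalings.

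The AGO2 libraries also differed from the mouse libraries in the cell type markers. The 6 listed epithelial miRNA, of the miR-200 family with miR-205, summed to 338037 and 368284 RPM in AGO2 against 159803 and 188746 RPM in mouse. The higher sum came from miR-200a-3p, with 267861 and 255991 RPM against 75449 and 118479 RPM, and from miR-141-3p, while miR-200b-3p, miR-200c-3p and miR-429-3p lay lower in both AGO2 samples than in both mouse samples. The 5 stroma and smooth muscle miRNA summed to 37249 and 35114 RPM in AGO2 against 54443 and 71185 RPM in mouse. The lower sum came from miR-143-3p. Of the same list, miR-199a-5p lay higher in AGO2, with 610 and 891 RPM against 227 and 338 RPM, and the others overlapped. The sum of the 4 listed red blood cell miRNA was higher in both AGO2 samples than in both mouse samples, as given above, but singly miR-451a and miR-486-5p overlapped. None of these markers was at 0 in both samples of a group, and their part in the family's difference was not tested.

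The 3p arms of the same precursors were rare in every library, and for part of them the reads were more frequent in AGO2 than in mouse. Those with enough reads for a ratio are shown with their bases 2 to 8 in capitals, since they carry other seeds than the family.

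mmu-miR-15b-3p: cGAATCATtatttgctgctcta
mmu-miR-16-2-3p: aCCAATATtattgtgctgcttt
mmu-miR-195a-3p: cCAATATTggctgtgctgctcc
mmu-miR-497-3p: cAAACCACactgtggtgttag

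All 3p arms together made up 0.115% and 0.172% of the reads of the family's precursors in the mouse samples, 0.881% and 1.81% in the AGO2 samples and 0.0688% and 0.0670% in the bovine samples. miR-15b-3p was counted 102 and 79 times in mouse, which is 11.0 and 9.41 RPM, and 211 and 138 times in AGO2, which is 54.0 and 27.4 RPM. miR-16-2-3p was counted 64 and 75 times in mouse and 187 and 149 times in AGO2, or 6.88 and 8.94 RPM against 47.8 and 29.6 RPM. For both arms the AGO2 samples lay above both mouse samples, as they did for 31.1% of all tested miRNA.

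The values of miR-497-3p rested on 1 library. It was counted 51 and 90 times in mouse and 35 and 480 times in AGO2, or 5.48 and 10.7 RPM against 8.95 and 95.2 RPM. miR-195a-3p was counted 61 and 49 times in mouse and 46 and 17 times in AGO2, or 6.56 and 5.84 RPM against 11.8 and 3.37 RPM, and the groups overlapped. miR-15a-3p was counted once in mouse sample 1 and not in the other mouse and AGO2 samples.

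By edgeR, the log2 fold change was 2.13 ± 1.13 for miR-15b-3p, 2.42 ± 1.18 for miR-16-2-3p and 2.87 ± 1.19 for miR-497-3p, with adjusted p-values of 0.149, 0.118 and 0.0718. None was thus called. DESeq2 called miR-16-2-3p and miR-497-3p, at adjusted p-values of 0.0392 and 0.0325, and 23.1% of all tested miRNA higher. These 3 arms passed the count limit of the test only through an AGO2 library, and the other 3 did not pass it, so that the values of those tested lean towards AGO2 by the choice.

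The ratio of 5p to 3p reads sets both arms of a precursor against each other within a library. For miR-16, with both 3p arms summed, there were 1914 and 1198 reads of the 5p arm per 3p read in mouse and 140 and 132 in AGO2. For miR-15b there were 162 and 114 in mouse and 26.9 and 22.4 in AGO2. For miR-195 there were 233 and 196 in mouse and 48.6 and 103 in AGO2.

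For miR-497 the ratio was 643 and 383 in mouse and 234 and 22.1 in AGO2, and AGO2 sample 2 was thus far below the other. In all 4 precursor sets the AGO2 samples lay below the mouse samples. Over the 102 mouse miRNA with both arms listed and at least 20 counts on average of the rarer arm, the ratio of the more to the less abundant arm lay lower in both AGO2 samples for 42.2% and higher in both for 31 of them, with a median difference of -0.85 on the log2 scale. The mean log2 ratio, with 0.5 added to each count, differed from that in mouse by -3.47 for miR-16, which is 11.1-fold lower, and by -2.47 for miR-15b, which is 5.53-fold lower. The difference was -2.79 for miR-497 and -1.61 for miR-195. With AGO2 sample 1 alone the difference of miR-497 was -1.09, and with AGO2 sample 2 alone it was -4.48, while that of miR-195 was -2.14 and -1.08. The exact permutation test (two-sided, 2 against 2 libraries) gave p = 0.333 for each of the 4 ratios, raw and adjusted over the 4, which is the smallest p this design can give.

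**Figure D3:**
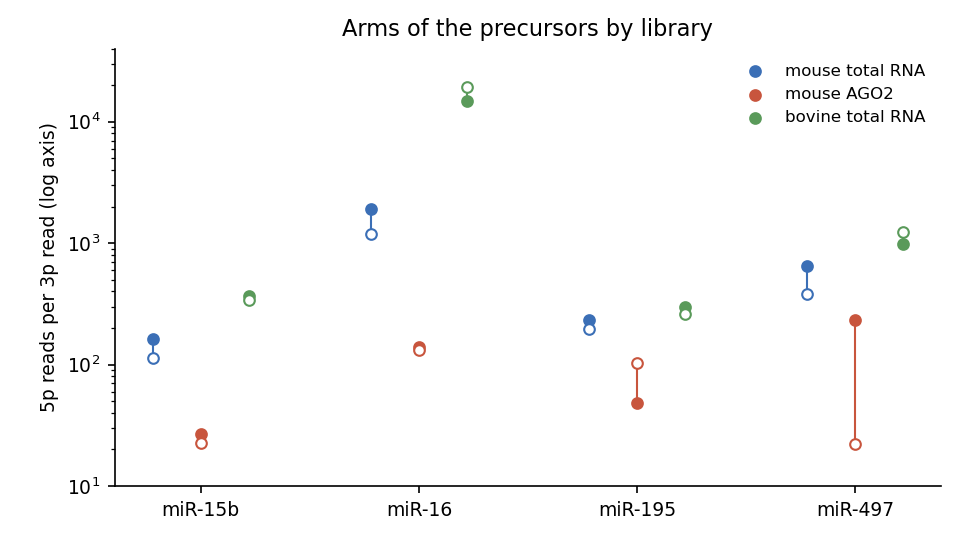
Reads of the 5p arm per read of the 3p arm (log axis) for 4 sets of precursors, with filled points for sample 1 and open points for sample 2. The AGO2 samples lie below the mouse samples in each set, with miR-16 at 140 and 132 against 1914 and 1198.

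The 3p arms also tell the precursors of miR-16-5p apart. In mouse, miR-16-2-3p made up 94.6% of the 3p reads of both miR-16 precursors, with 139 counts over both samples against 8 for miR-16-1-3p. In AGO2 it made up 94.9%, with 336 counts over both samples against 18. The AGO2 samples differed, since all reads of miR-16-1-3p came from sample 2. Sample 1 had 187 counts of miR-16-2-3p against 0, and sample 2 had 149 against 18. In bovine the 3p arms were listed under names of other species. There the arm named miR-16-2-3p, placed on the precursor of miR-16b-5p, was counted 19 and 18 times, and the arm named miR-16-1-3p, placed on the precursor of miR-16a-5p, was counted once in sample 1 and not in sample 2. The 5p levels had the other order, since miR-16a-5p exceeded miR-16b-5p over 4-fold. A 3p count does not measure how much 5p arm a precursor gives. Bovine had 14772 and 19360 reads of the 5p arm per 3p read for miR-16, with both genes summed. The ratio in bovine was 370 and 343 for miR-15b, 297 and 262 for miR-195 and 990 and 1244 for miR-497. These bovine ratios were not compared with those of mouse, since the 3p arms are listed there by the sequences of other species.

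Bovine against mouse addresses how alike the miRNA of the gland were in the species. With the counterparts of the list of names, miR-195 was called higher and the other members were not. With edgeR's quasi-likelihood test and Benjamini-Hochberg adjustment over 152 matched miRNA, 1 of 5 members was called higher and 0 lower, a smaller share than the 27.6% of all tested miRNA called higher, and 30.3% were called lower. DESeq2 called the same member alone, and called 31.6% of all tested miRNA higher and 32.2% lower. In RPM, both bovine samples lay above both mouse samples for 4 of the 5 members, miR-15b-5p being the exception, and for 51.3% of all tested miRNA. The reverse held for 0 members and for 33.6% of all tested miRNA.

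miR-195 was 3.77-fold higher in bovine, with a log2 fold change of 1.92 ± 0.31 (SE) and an adjusted p of 0.00659 by edgeR. Its log2 fold change was between 1.68 and 2.11 when any 1 library was left out. The log2 fold change was 1.81 without bovine sample 1 and 1.85 without bovine sample 2. A fit that leaves 1 library in a group has no spread in that group. Such fits therefore cannot tell whether the call holds without a library, and their calls are not given. The mouse line ends 1 base before the bovine line, and these sequences have 21 of 21 compared bases in common.

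For miR-16 the direction depended on the bovine line set against it. With miR-16a-5p, the counterpart by the list of names, the log2 fold change was 0.58 ± 0.26 with an adjusted p of 0.121 by edgeR. With miR-16b-5p, whose bases are those of mouse miR-16-5p, it was -1.57 with an adjusted p of 0.00423. With both summed it was 0.86 with an adjusted p of 0.0412, where reads counted in both lines would raise the sum. Without mouse sample 1 the value for miR-16a-5p was 0.76. The name miR-16-5p in mouse holds the product of both precursors, as the sum does in bovine.

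The remaining members did not pass the test. The log2 fold change was -0.65 ± 0.39 for miR-15b-5p, 0.09 ± 0.38 for miR-15a-5p and 0.03 ± 0.26 for miR-497-5p, with adjusted p-values of 0.207, 0.851 and 0.934 by edgeR. Single mouse libraries moved the first 2 of these. Without mouse sample 2 the value of miR-15b-5p was -1.01. That of miR-15a-5p was 0.55 without mouse sample 1 and -0.31 without mouse sample 2. A fit with 1 mouse library takes its spread from the bovine libraries alone, so its calls are not given. The median log2 fold change was 0.09 over the 5 members and 0.04 over all tested miRNA.

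**Figure D4:**
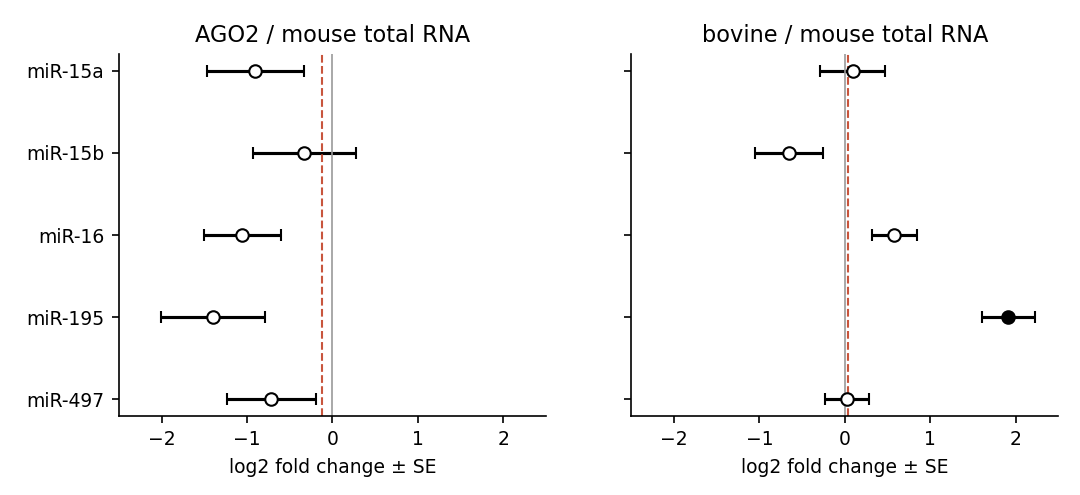
Log2 fold changes with their standard errors from edgeR, for AGO2 over mouse (left) and bovine over mouse (right), where bovine miR-16a-5p stands for miR-16. A filled point marks an adjusted p under 0.05, and the dashed line is the median of all tested miRNA. miR-195 in bovine, at 1.92, is the one filled point.

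With library totals alone as the scaling, the median of all tested miRNA moved by 0.47, and 52 miRNA were called higher and 36 lower in place of 42 and 46. Set against that median, miR-195 lay at 1.88 in the fit reported, at 1.89 with DESeq2 size factors and at 1.88 with library totals alone. miR-16 against miR-16a-5p lay at 0.55, 0.56 and 0.54. Under library totals alone miR-16 was called higher as well, at 1.04 with an adjusted p of 0.0171. In RPM, which use library totals, 4 members thus stood higher in bovine, while after the TMM scaling of the fit miR-15a-5p and miR-497-5p lay at 0.09 and 0.03.

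Cell type markers differed between the species too. The endothelial arms of miR-126 summed to 62356 and 55972 RPM in bovine against 24194 and 34265 RPM in mouse. The epithelial list summed to 77607 and 79458 RPM in bovine against 159803 and 188746 RPM in mouse, which came mainly from miR-200a-3p, with 13948 and 13093 RPM against 75449 and 118479 RPM. Of the same list, miR-200c-3p and miR-205-5p lay higher in both bovine samples. The skeletal muscle list, led by miR-1, summed to 727 and 782 RPM in bovine against 163 and 213 RPM in mouse. The white blood cell list summed to 2553 and 3285 RPM against 1263 and 2123 RPM. Its higher sum came mainly from miR-150-5p, with 1347 and 2007 RPM against 250 and 260 RPM. Of the same list, miR-142-5p and miR-155-5p lay higher in both bovine samples, and miR-142-3p and miR-223-3p lay lower in both. The sum of the stroma and smooth muscle list overlapped, with 78041 and 63692 RPM in bovine against 54443 and 71185 RPM in mouse. Its main part, miR-143-3p, overlapped, as did miR-199a-5p. Singly, miR-145-5p, miR-199a-3p and miR-214-3p lay higher in both bovine samples. For miR-145-5p the values were 6434 and 6064 RPM in bovine against 2289 and 1772 RPM in mouse. The red blood cell list, with 3 of 5 miRNA found in bovine, summed to 1709 and 1098 RPM there. The part of these cells in the level of miR-195 was not tested.

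Ratios within a library do not depend on the scaling, and were taken of members with neighbouring genes in mouse. For miR-16 they use the total of both precursors. miR-195 stood to miR-497 at 0.434 and 0.278 in mouse, at 0.273 and 0.165 in AGO2 and at 1.25 and 1.37 in bovine. The mean log2 ratio was thus higher by 1.91 in bovine than in mouse, which is 3.76-fold, and lay between 1.59 and 2.23 when any 1 library was left out. miR-15a stood to miR-16, with both bovine genes summed, at 0.380 and 0.278 in mouse and at 0.213 and 0.180 in bovine.

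miR-15b stood to miR-16 at 0.124 and 0.0977 in mouse and at 0.0376 and 0.0404 in bovine. The mean log2 ratio in bovine differed from that in mouse by -0.73 for miR-15a and by -1.496 for miR-15b. With 2 against 2 libraries, the exact permutation test (two-sided) gave p = 0.333 for each of the 3 ratios, raw and adjusted over the 3, again the smallest p possible. In these ratios the bovine samples did not overlap with the mouse samples. The share over other pairs of miRNA was not computed. In single levels, 51.3% of all tested miRNA lay higher in both bovine samples and 33.6% lower. The ratios of miR-15a and miR-15b also have the same denominator.

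**Figure D5:**
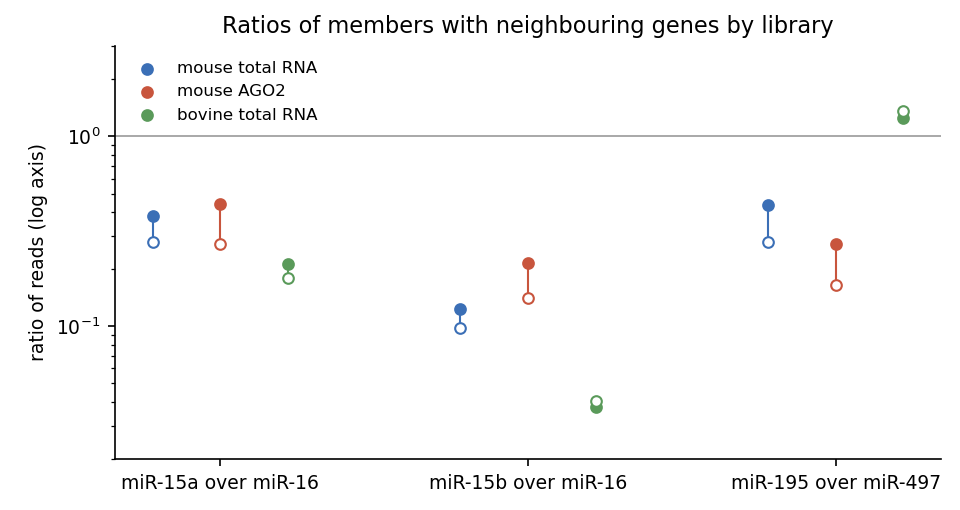
Ratios of reads of family members with neighbouring genes in mouse (log axis), where miR-16 is the total of both precursors, with filled points for sample 1 and open points for sample 2 and bovine miR-16a and miR-16b summed. miR-195 over miR-497 is 1.25 and 1.37 in bovine, above the line at 1, and 0.434 and 0.278 in mouse, below it.

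The bases 2 to 7 of the family were also found in 3 other lines of the mouse list and in 2 of the bovine list. miR-322-5p had 1369 and 2337 RPM in mouse and 1440 and 1839 RPM in AGO2, with a log2 fold change of -0.03 ± 0.57 and an adjusted p of 0.971 by edgeR, and bovine miR-424-5p, which has the same bases 2 to 8, had 1571 and 1440 RPM. miR-503-5p, which has another base 8, had 85.6 and 120 RPM in mouse, 63.4 and 44.8 RPM in AGO2 and 19.1 and 19.2 RPM in bovine. By edgeR it was called lower in bovine, at -2.88 ± 0.35 with an adjusted p of 0.00324, as were 30.3% of all tested miRNA. In AGO2 it was not called, at -0.79 ± 0.70 with an adjusted p of 0.375 by edgeR. The third was a predicted mouse miRNA with 37 counts in AGO2 sample 1 and none in the other mouse and AGO2 samples. With these included, the sum was 25501 RPM in mouse, 12899 RPM in AGO2 and 53528 RPM in bovine.

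The miRNA with a pattern most like that of miR-16 were sought among 46 others with at least 1000 RPM in each of the 6 libraries, by the root mean square distance of log2 RPM centred on each miRNA's own mean. miR-26a-5p was nearest, at 0.26, with 24422 and 27363 RPM in mouse, 17573 and 13013 RPM in AGO2 and 66943 and 72194 RPM in bovine. miR-126a-3p was next, at 0.31, followed by the family member miR-15a-5p at 0.34, while miR-497-5p was 7th at 0.47. Bovine miR-16a-5p alone stood for miR-16 in bovine here. Like miR-16, miR-26a-5p and miR-126a-3p had their lowest levels in AGO2 and their highest in bovine, which their choice by this same pattern brings about. The 6 libraries share the scaling by library sums, and no test was made of this likeness.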

How the data were processed

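Small RNA libraries of mouse (n = 2), AGO2 (n = 2) and bovine (n = 2) were analysed. The authors trimmed poly-A, retained inserts from 17 to 28 nt and assigned them to known (miRBase 20) and predicted precursors by the miRDeep2 quantifier. Their deposited files give each mature miRNA's counts, not normalised. The deposited normalised column and lists of predictions were not used. Libraries were numbered in accession order, which was taken as the order of the study's sample numbers. The labels do not state this. In each group the library with more counts is the sample to which the paper gives more mapped reads. The sources do not say which animal gave which library, and replicates differed by more than sampling noise.

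RPM were computed over library sums. For tests, edgeR 4.0.16 was run under R 4.3.3 (TMM, quasi-likelihood F test, Benjamini-Hochberg, adjusted p under 0.05), with the standard error as size over the square root of F. For AGO2, miRNA with a count above 175 in 1 of 4 libraries were tested. For bovine, those of 251 lines matched by the study's list of names that reached 100 RPM in 1 library were tested. Ratios used a pseudocount of 0.5 and exact permutation tests in SciPy 1.17.1. Positions are of GRCm38 with GENCODE M21, and hairpins are RefSeq's for GRCm38.p6.

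Named miRNA were the members, their 3p arms, other miRNA with bases 2 to 7 of miR-16-5p, singly where a library reached 100 RPM, and the 3 nearest in pattern to miR-16. The rank of miR-497-5p in pattern and the predicted miRNA were added after their values were seen. Members and lists were chosen with earlier results of these data known. Alternatives were DESeq2 1.42.0, its size factors, library totals, no filter, each library left out, other matches of miR-16, other denominators and a pseudocount of 1. These numbers as a block were added after the data were seen.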

Additional observations from a re-analysis of the deposited data

How the results depend on the processing

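The labels give no replicate numbers, and the sources do not say that the study's sample numbers mark a mouse. With the numbers used here, in accession order, as a replicate block, chosen after seeing the data, 3 members were called lower in AGO2, miR-15a, miR-16 and miR-195a, at log2 fold changes of -0.97, -1.07 and -1.42 and adjusted p-values of 0.0363, 0.0084 and 0.0198 by edgeR. The block also raised the calls over all miRNA, to 60 higher and 61 lower from 46 and 37. The log2 ratio of sample 1 over sample 2 had a correlation of 0.237 between mouse and AGO2 over the 299 tested miRNA, which with 2 samples does not decide whether the numbers pair. No paired analysis was possible of bovine against mouse, which share no animal. For AGO2 against mouse, 0 members were called in the fit reported and 1 with DESeq2. For bovine against mouse, 1 was called in the fit reported. With library totals alone, with miR-16a and miR-16b summed or with miR-16b as the counterpart, 2 were called. Fits that left 1 library in a group have no spread in that group, so their calls are not counted here. The log2 fold change turned in sign for miR-15b in AGO2 without AGO2 sample 2 (0.27) and without mouse sample 1 (0.03), within a range of -0.67 to 0.27 when a library was left out. Against bovine it turned for miR-16 with miR-16b as the counterpart (-1.57), for miR-15a without bovine sample 1 (-0.01) and without mouse sample 2 (-0.31, of a range up to 0.55), and for miR-497 with miR-16b as the counterpart (-0.0060), without a filter (-0.016), without bovine sample 1 (-0.17) and without mouse sample 1 (-0.12, of a range up to 0.089). The causes were not tested. The bovine family sum was 46066 RPM without miR-16b and 53528 RPM with all miRNA of the same bases 2 to 7. Over all miRNA, the calls were 83 for AGO2 and 88 for bovine, and 144 for bovine without a filter. The ratios are limited by the 3p arms, counted at most 102 times in a mouse sample.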
